A study of Mus musculus with 2 samples.

Results

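The genes of the unfolded protein response and the integrated stress response were examined in leukaemia cells of the mouse (B-ALL, B-cell acute lymphoblastic leukaemia) that differ in redox state. The 10 genes were 3 stress sensors (Atf6, Ern1 and Eif2ak3), 3 transcription factors (Xbp1, Atf4 and Ddit3) and 4 target genes (Hspa5, Dnajb9, Herpud1 and Sesn2). They were chosen by name, and their probes were found by matching the RefSeq accession of each array probe to a current gene symbol. All 10 had a probe, 12 probes in all out of 39085 on the array, and all 10 were measured on both arrays, among 20618 genes with a named probe and 10521 measured on both. The leukaemia cells came from bone marrow and are labelled with an age of 8 weeks. They carried SoNar, a fluorescent protein that reads the cytosolic NADH/NAD+ ratio, and were sorted on its excitation ratio. The cells with a high ratio (SoNar-high) and those with a low one (SoNar-low) were each hybridised to 1 one-colour Agilent array, below the high and the low array. The sample titles call the same samples N-myc-high and N-myc-low. Strain, oncogene, number of animals and any pooling were not given in the sources used here. With 1 array per population there is no replicate and no test between populations, and every difference is between 2 arrays; population and scan session cannot be told apart.

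The unfolded protein response starts in the endoplasmic reticulum (ER), where the chaperone BiP, the product of Hspa5, binds unfolded proteins and is released from the sensors IRE1, PERK and ATF6. IRE1 splices Xbp1 mRNA into the form that encodes an active transcription factor, PERK phosphorylates eIF2α, and ATF6 is cut in the Golgi into a soluble factor. Phosphorylated eIF2α is also the entry point of the integrated stress response, which lowers general translation and favours translation of ATF4 and, downstream, CHOP, the product of Ddit3. Antibody-secreting cells rely on this machinery, and XBP1 is best known in the B lineage as a factor of plasma cells. Splicing of Xbp1, cleavage of ATF6, phosphorylation of eIF2α and translation of Atf4 are not seen by an array, which reads transcript levels alone.

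The stretches of DNA just before the transcription starts are shown for the 4 target genes. These genes are the 2 with the largest upward differences on the high array (Dnajb9 and Herpud1), the central chaperone gene (Hspa5) and the lowest gene (Sesn2). Such stretches can hold elements through which the stress factors are known to act. Each is the 250 bases before the RefSeq start in GRCm38.p6, written 5′ to 3′ on the gene's own strand, with motif matches in capitals.
Hspa5 (chr2:34771840-34772089, + strand): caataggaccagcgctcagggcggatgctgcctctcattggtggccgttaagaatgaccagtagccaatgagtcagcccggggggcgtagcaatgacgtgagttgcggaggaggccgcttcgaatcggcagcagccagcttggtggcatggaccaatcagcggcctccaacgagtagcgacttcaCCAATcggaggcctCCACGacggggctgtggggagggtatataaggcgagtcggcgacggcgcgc
Herpud1 (chr8:94386179-94386428, + strand): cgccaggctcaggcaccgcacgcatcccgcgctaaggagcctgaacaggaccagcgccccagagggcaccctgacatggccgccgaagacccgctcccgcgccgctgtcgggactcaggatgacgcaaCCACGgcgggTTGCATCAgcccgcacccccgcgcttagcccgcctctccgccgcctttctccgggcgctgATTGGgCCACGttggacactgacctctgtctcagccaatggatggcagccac
Dnajb9 (chr12:44210069-44210318, - strand): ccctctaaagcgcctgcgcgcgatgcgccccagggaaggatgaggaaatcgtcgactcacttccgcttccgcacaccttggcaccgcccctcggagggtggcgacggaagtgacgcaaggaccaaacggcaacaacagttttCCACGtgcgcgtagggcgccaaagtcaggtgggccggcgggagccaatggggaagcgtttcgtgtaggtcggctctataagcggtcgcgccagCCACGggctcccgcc
Sesn2 (chr4:132510457-132510706, - strand): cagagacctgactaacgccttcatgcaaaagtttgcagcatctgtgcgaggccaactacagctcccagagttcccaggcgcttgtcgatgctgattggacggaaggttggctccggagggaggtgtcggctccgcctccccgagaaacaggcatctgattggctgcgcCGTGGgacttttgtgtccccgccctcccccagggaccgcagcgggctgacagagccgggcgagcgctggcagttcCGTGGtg

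Capitals mark the ER stress response element (ERSE: CCAAT, any 9 bases, CCACG), its shorter relative ERSE-II (ATTGG, any 1 base, CCACG), the amino acid response cores TGATGCAA and TGATGAAA, the UPRE TGACGTGG, the CRE TGACGTCA and the half-site CCACG alone, each searched on both strands. The CCACG of a full ERSE or ERSE-II counts as a half-site too. The Hspa5 stretch held 1 ERSE, which begins 65 bases before the start, a match found in 0.113% of 32851 promoter stretches of the same length. Herpud1 held 1 ERSE-II, 52 bases before the start, a match found in 0.0304% of them, and 1 amino acid response core, TGATGCAA, on the opposite strand 112 bases before the start, found in 0.791%. Dnajb9 and Sesn2 held 2 half-sites each and no full element, and 28.3% of all stretches held a half-site. Of the 9 genes in the promoter table (Atf6 was not matched), 6 held a half-site, and none held UPRE (0.563% of all stretches), CRE (1.55%) or TGATGAAA (0.883%). These are matches of letters in a window and do not show binding.

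Of 43020 non-control spots per array, 44.8% on the high and 72.9% on the low array were detected, meaning well above background by the scanner software's own call. The lowest such signal was 46.4 and 19.7 intensity units in the same order, so the high array resolves dim genes less well. Signals were scaled to each array's 75th percentile, which adds 0.20 on the log2 scale to the raw ratio of high over low array. Among 197 probes printed as repeated spots, the SD of a difference between 1 spot of each array had a median of 0.15 (log2), and 2394 genes with several probes had a median SD of 0.32 between probes. Each probe of the 10 genes was printed as 1 spot, and errors below are the scanner software's own for that spot, so they leave out differences between sorts or animals. Of 12 marker genes of early B cells (pro-B and pre-B), 8 were measured on both arrays, 5 of them above and 3 below the median gene. Their differences (log2, high minus low array) ran from -0.08 for Pax5, 0.01 for Cd79b and 0.08 for Vpreb1 to 0.77 for Blnk and 0.98 for Ebf1, named after their values were seen. Igll1, Rag1, Rag2 and Il7r were detected on neither array.

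Differences are log2 values, high minus low array, and a gene was called at 2-fold, a rule of size. Sesn2 was 2.97-fold lower on the high array, and the other 9 genes differed by less than 2-fold. None of the 10 was called higher, against 2.40% of all measured genes, and 1 was called lower, against 4.39%; in either direction it was 1 of 10 (10%) against 6.80%. The median of the 10 was 0.28, and that of all measured genes was 0.22. Relative to this median gene 5 of the 10 lay above and 5 below, and the median of the 10 was 0.06. The direction of calls over all genes depended on the scaling: 35.4% of called genes were higher as reported, 96.0% with the array median, and 6.67% with the percentile taken over probes detected on both. Values relative to the median gene, which these scalings leave as they are, are therefore given for each of the 10 genes. For genes outside the 10 the difference itself is printed, and each list is also counted against the median gene.

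**Figure D1:**
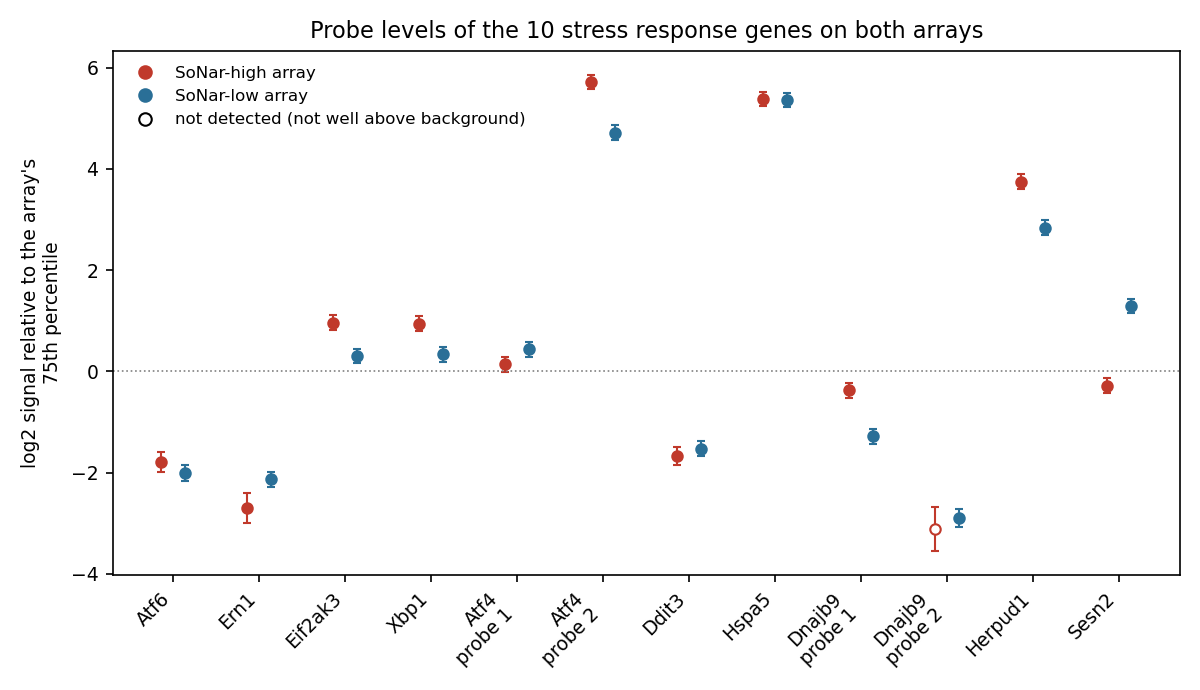
Level of each probe of the 10 genes on the high array (red) and the low array (blue), as log2 signal relative to the array's 75th percentile. Bars are the scanner software's error of 1 spot, open points were not detected, and only the 2 points of the same probe can be compared. Sesn2 shows the widest gap, at 0.823 and 2.44 times the 75th percentile, and the pairs of Hspa5, Ddit3, Atf6 and the dimmer Dnajb9 probe (probe 2) overlap within their errors.

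Of the 3 sensor genes, Eif2ak3 lay above the median gene, Ern1 below it and Atf6 close to it. Eif2ak3, which encodes the eIF2α kinase PERK, gave 794 ± 79.9 intensity units on the high and 581 ± 58.2 on the low array. Its difference after scaling was 0.65 ± 0.21 (0.43 relative to the median gene), a 1.57-fold higher level on the high array. It lay above the median gene under all 11 alternative ways of processing, from 0.27 to 0.61. Here and for the other genes with 1 probe, these are not 11 independent checks. The array median and the percentile over probes detected on both leave values relative to the median gene as they are. The filter and probe settings move only the median gene. In the 10% of genes by level that held Eif2ak3, the median difference was 0.29 and 176 of 1052 genes were as high. Ern1, which encodes the kinase and RNase IRE1, gave 62.7 ± 12.9 units on the high and 107 ± 11.5 units on the low array. The difference was -0.57 ± 0.34 (-0.79 relative to the median gene), and the signal on the high array was close to the lowest one detected there. Relative to the median gene it stayed below under the 10 alternatives that measured it, between -0.84 and -0.31. Before the median gene is subtracted, the Ern1 difference ran from -0.87 to -0.003, the latter with the array median. In the 10% of genes by level that held Ern1, the median difference was 0.002 and 143 of 1053 genes lay as low. Atf6, the membrane-bound factor that is cut to become active, gave 118 ± 15.9 and 117 ± 12.4 units, a difference of 0.21 ± 0.25 that sat on the median gene (-0.01). Its sign relative to the median gene was positive in 5 and negative in 5 of 10 alternatives, so no direction can be given. In the 10% of genes by level that held Atf6, the median difference was -0.13 and 284 of 1052 genes were as high.

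Of the transcription factor genes, Xbp1 was 1.52-fold higher on the high array. Its probe gave 783 ± 79.2 units there and 592 ± 59.4 on the low array, a difference of 0.60 ± 0.21 (0.38 relative to the median gene, and 0.22 to 0.56 over 11 alternatives). In the 10% of genes by level that held Xbp1, the median difference was 0.29 and 213 of 1052 genes were as high. The probe is assigned to 1 Xbp1 transcript, and its bases are not given in the files used here, so spliced and unspliced mRNA are not separated. Atf4, the main factor of the integrated stress response, was read by a pair of probes that disagreed. The brighter gave 21530.2 ± 2153 units on the high and 12371 ± 1237 on the low array, a difference of 1.00 ± 0.20. The dimmer gave 450.4 ± 46.1 and 635 ± 63.6 units, a difference of -0.29 ± 0.21. The 2 probes thus lay on opposite sides of 0, and their mean of 0.35 (0.13 relative to the median gene) describes neither. With the brightest probe alone, or with the stricter filter on dim probes, Atf4 would count as called higher, at 1.00. Ddit3, which encodes the pro-apoptotic factor CHOP, gave 129 ± 16.0 and 163 ± 16.7 units, a difference of -0.13 ± 0.23 (-0.36 relative to the median gene). It lay below the median gene in 10 of 10 alternatives, but by as little as 0.03 under quantile normalization. Before the median gene is subtracted, its sign turned positive in 3 of these 10. In the 10% of genes by level that held Ddit3, the median difference was also -0.13 and 521 of 1052 genes lay as low. Ddit3 was thus typical of genes at its level.

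The ER targets also divided. Hspa5, the chaperone gene whose ERSE is shown above, was among the brightest 10% of genes and gave 16991 ± 1699 units on the high and 19299 ± 1930 on the low array. After scaling the difference was 0.02 ± 0.20, a 1.01-fold ratio, and it lay 0.21 below the median gene; relative to it the gene was below in 11 of 11 alternatives, while the sign before subtraction was positive in 7 and negative in 4. The 1052 genes in the same 10% by level had a median difference of 0.39, with percentiles 5 and 95 at -0.40 and 0.89, and 188 of them lay as low as Hspa5. Herpud1, whose product is part of the ER membrane complex that sends misfolded proteins to the proteasome, gave 5483 ± 548 and 3367 ± 337 units. Its difference was 0.90 ± 0.20 (0.68 relative to the median gene), a 1.87-fold higher level on the high array. In its 10% by level the median gene stood at 0.40, and 59 of 1052 genes were as high. Herpud1 was above the median gene in 11 of 11 alternatives, from 0.39 with the authors' series matrix to 0.86 without a filter on dim probes.

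Dnajb9, which encodes ERdj4, a J-domain partner of BiP, had a measured probe with 315 ± 33.1 units on the high and 193 ± 19.7 on the low array. That probe differed by 0.91 ± 0.21 (0.69 relative to the median gene), a 1.88-fold higher level, and 16 of the 1052 genes in its 10% by level were as high. A dimmer Dnajb9 probe gave 47.1 ± 13.9 units on the high array, where it was not detected, and 63.3 ± 7.93 on the low array. Its difference of -0.23 ± 0.46 was within its error, and it turned to 0.34 with the array median and 0.36 in the authors' series matrix, so this probe gives no direction. With both probes averaged the gene stood at 0.34, so its value rests on the choice of probe.

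Sesn2 stood furthest from the rest. It encodes sestrin 2, a leucine-binding inhibitor of mTORC1 signalling and an antioxidant protein whose gene is a target of ATF4, p53 and NRF2. Its probe gave 336 ± 36.0 units on the high array and 1147 ± 115 units on the low array, both detected. The difference was -1.57 ± 0.21, or -1.79 relative to the median gene. Of 10521 genes 138 lay as low or lower, 1.31% by rank, and in its own 10% by level 19 of 1052 did, where 6.27% of genes passed 2-fold either way. It was lower by at least 2-fold under all 11 alternatives of scaling, background, probe and filter, from -1.86 to -1.0, the latter with the array median. These are not 11 independent checks. The probe and filter settings and the background call at 3 SD of negative controls left it at -1.57, since they cannot move a gene with 1 probe. At 2.97-fold it did not pass a 3-fold threshold. It was read by 1 probe on 1 spot of each array, so no other probe of the gene bears on it.

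**Figure D2:**
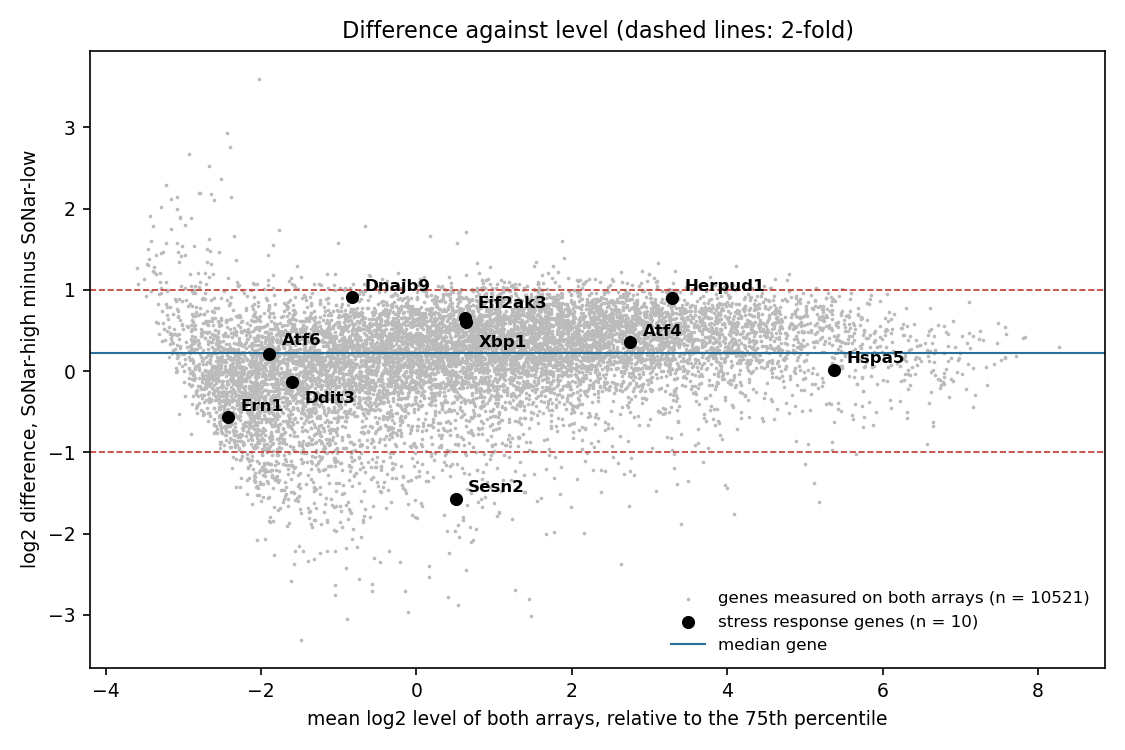
Difference between the arrays against the mean level of both for 10521 genes (grey) and the 10 stress response genes (black), both axes on the log2 scale. The blue line is the median gene at 0.22 and the dashed lines are 2-fold; Sesn2 at -1.57 is the one black point beyond them, and Dnajb9 (0.91) and Herpud1 (0.90) lie just inside the upper one.

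The 10 genes were then set beside 76 other genes of the same pathways, listed by role from textbook knowledge. All 76 had a probe, 63 were measured on both arrays, 7 were seen on the low array alone and 6 on neither. Values and medians by role below cover the 63 measured genes alone. None of the 63 was called in either direction, against 6.80% of all genes, and their differences ran from -0.50 to 0.95. Their median was 0.30, 0.08 above the median gene, with 39 above and 24 below it. Without a filter on dim probes 3 of the 76 were higher and 1 lower by 2-fold, against 1885 and 2542 of all 20618 genes. With the array median 22 of the 63 were higher, against 3380 of all 10521 genes measured on both arrays.

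Among 9 other genes of sensing and activation the highest was Mbtps1 (0.95, probes at 0.84 and 1.06), the Golgi protease that makes the first cut in ATF6, followed by Eif2ak4 (0.73), the eIF2α kinase GCN2 that senses uncharged tRNA. The lowest were Rtcb (-0.50), the RNA ligase that joins the Xbp1 exons after IRE1 has cut them, and the haem-regulated eIF2α kinase gene Eif2ak1 (-0.24). The list's median was 0.23. Of the 9, 5 lay above and 4 below the median gene. Among 7 other transcription factor genes (median 0.44, 5 above and 2 below the median gene), Creb3 (0.81), a membrane-bound factor related to ATF6, and Nfe2l2 (0.65), which encodes the antioxidant factor NRF2, were highest. Atf3 (-0.12), a stress-induced factor downstream of ATF4, and Cebpg (-0.06), a dimer partner of ATF4, were lowest and close to Ddit3.

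The 17 other chaperone and folding genes had a median of 0.27 and 11 lay above the median gene. Canx (0.86), the membrane lectin calnexin, and Hsp90b1 (0.82), the ER form of HSP90, were highest, near Dnajb9. Ero1a (-0.23), an oxidase that drives disulphide formation, and Dnajb11 (-0.08), another J-domain partner of BiP, were lowest. Of 14 other genes of ER-associated degradation (median 0.32, 9 above and 5 below the median gene), Syvn1 (0.79), the ubiquitin ligase HRD1 that works with the Herpud1 product, and Derl2 (0.78), a derlin of the same channel with 3 probes between 0.55 and 0.92, were highest. Derl3 (-0.34), another derlin, and Edem3 (-0.13), a mannosidase that marks glycoproteins for disposal, were lowest. Herpud1 lay above all 14 and Dnajb9 above all 17 of their lists, with all of these values under 2-fold; with its dimmer probe averaged in, Dnajb9 would lie within its list, at 0.34.

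Of 19 other targets and feedback genes of ATF4 and CHOP, 14 were measured on both arrays. They lay close together, between -0.08 and 0.59 with a median of 0.25, 8 above and 6 below the median gene. None of the 14 was near Sesn2. A further 1 was seen on the low array alone and 4 on neither, and these have no difference. Ppp1r15a (0.59), which encodes the eIF2α phosphatase subunit GADD34, and Ddit4 (0.43), another stress-induced inhibitor of mTORC1 signalling, were highest. Ppp1r15b (-0.08), the constitutive phosphatase subunit, and Phgdh (-0.01), the first enzyme of serine synthesis, were lowest. The classical ATF4 targets Asns (0.36) and Chac1 (0.27), picked out after their values were seen, were also near the median gene. The other sestrins did not share the value of Sesn2: Sesn3 stood at 0.85 and Sesn1, a p53 target, at -0.06, each by 1 probe.

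**Figure D3:**
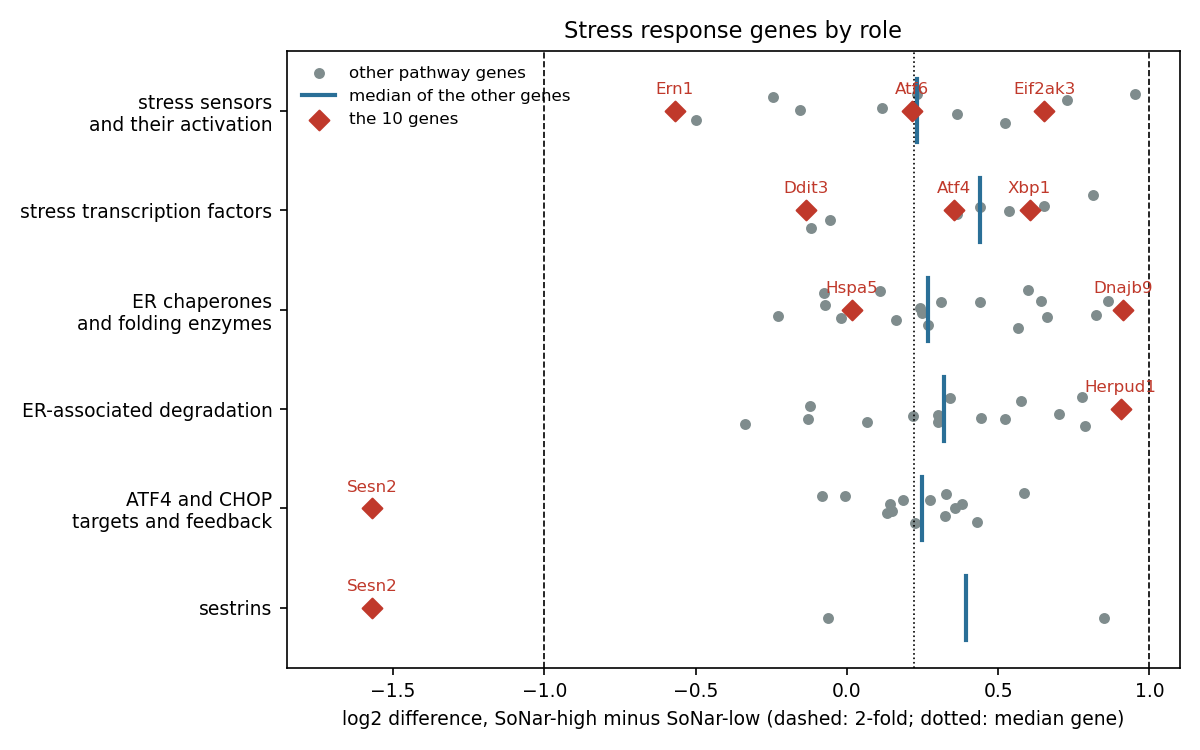
Differences of the 10 genes (red diamonds) and of the other measured pathway genes (grey points) by role, on the log2 scale, SoNar-high minus SoNar-low. Blue bars are the medians of the grey points, from 0.23 for the sensors to 0.44 for the transcription factors, and Sesn2, drawn in both lists it belongs to, is the one point beyond 2-fold.

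Markers of other marrow cells also differed between the arrays, and their part in these values was not tested. Of the 8 plasma cell genes 6 were measured, 2 above and 4 below the median gene, with a summed scaled signal of 10.3 on the high and 9.15 on the low array. Prdm1, the plasma cell regulator BLIMP1, was called lower (-1.43), Jchain was seen on the low array alone and Tnfrsf17 on neither. Mzb1 (0.31), Cd38 (0.23) and Slamf7 (0.20) lay above 0, and Irf4 (-0.12) and Sdc1 (-0.23) below it. Of 9 measured neutrophil genes 8 lay below the median gene and Ngp was called lower (-1.24), with summed signals of 42.4 and 50. Csf1r (-1.19) and C1qb (-1.09) of 5 measured monocyte and macrophage genes, Cd4 (-1.66) and Cd3e (-1.20) of 4 T and NK cell genes, and Hba-a1 (-1.82) and Ermap (-1.61), both of the measured erythroid genes, were called lower. Genes of the same lists went the other way, Ly86 (0.70) and Mrc1 (0.62) of the monocyte and macrophage genes and Cd2 (0.68) of the T and NK cell genes, as did Prtn3 (0.37) of the neutrophil genes; these 4 were named after their values were seen. The summed signals of the monocyte and macrophage, T and NK cell and erythroid lists were 12.3 and 8.26, 4.67 and 6.40, and 0.744 and 2.41, high array first. All these sums cover only genes measured on both arrays. They leave out genes detected on the low array alone: 1 plasma cell, 1 neutrophil, 2 monocyte and macrophage, 2 T and NK cell and 4 erythroid genes. Of all 20618 genes with a named probe, 5453 were detected on the low array alone. The purity of the sorted cells was not measured here, and fewer cells of a type and less RNA per cell cannot be told apart.

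**Figure D4:**
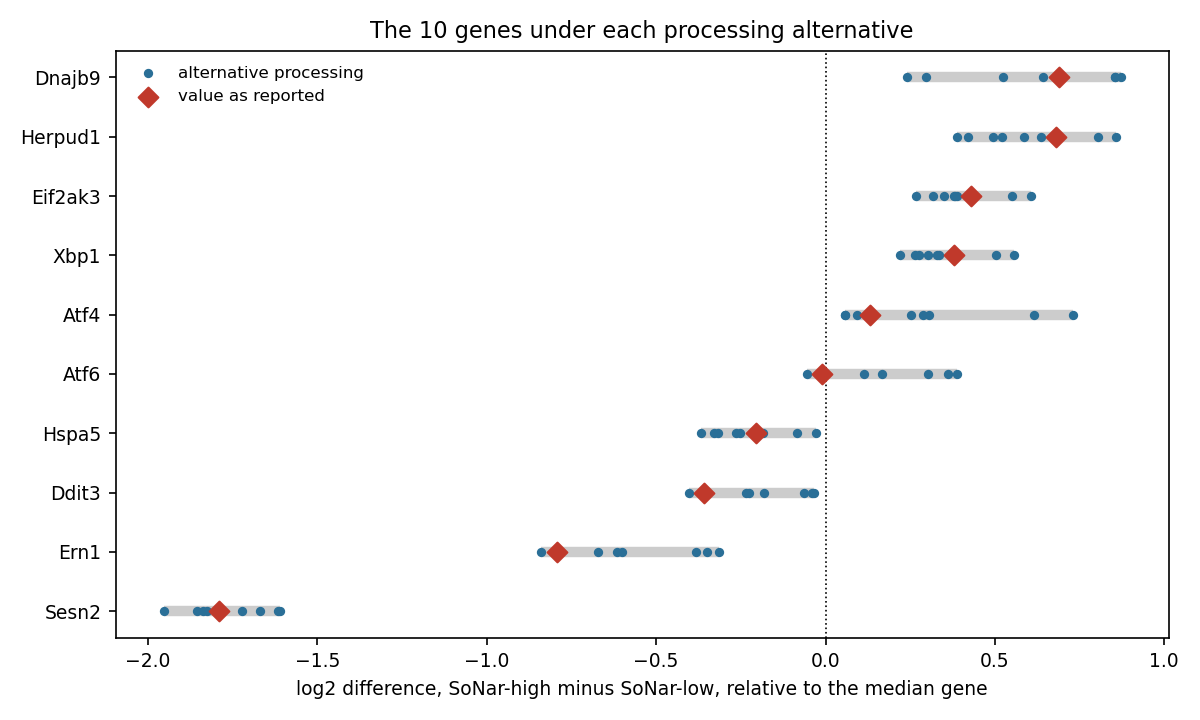
Difference of each of the 10 genes relative to the median gene (log2, SoNar-high minus SoNar-low) as reported (red diamonds) and under each alternative way of processing that measured it (blue points; grey bars span them). Sesn2 stays between -1.95 and -1.61, Dnajb9, Herpud1, Eif2ak3, Xbp1 and Atf4 stay above 0, Hspa5, Ddit3 and Ern1 below it, and Atf6 crosses it. Blue points are not independent checks, since some settings cannot move the difference of a gene with 1 probe. Atf4 is drawn as the mean of 2 probes or as the brighter one. Relative to the median gene these probes stood at 0.78 and -0.52.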

How the data were processed

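Total RNA of each sorted population, 1.0 µg, was labelled with Cy3 and hybridised to 1 array, per the labels' protocols. The scanner files deposited by the authors hold intensity values per spot with the local background already subtracted and no scaling between arrays, made with Agilent Feature Extraction 11.0.1.1 per the file headers; the submitters' processing notes name version 9.1. The authors also deposited a series matrix of log2 values, with a median of 5.90 on both arrays. Over probes its ranks followed each array's own scanner signals (Spearman's rho 0.99996 and 0.9998), so higher values mean higher signal. That does not fix the sign of a difference between the arrays. Ddit3 stood at -0.13 as reported and 0.18 in the matrix, and Hspa5 at 0.02 and -0.10. The processing and centring of the matrix are not given in the sources used here.

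Controls and flagged outlier spots (non-uniform or population) were left out, replicate spots were averaged on the log2 scale, and each array's 75th percentile was subtracted. Detected means well above background by the scanner software's flag, and each gene's difference averages the probes detected on both arrays. Accessions were matched without versions to a RefSeq table (GRCm38.p6, which also gave the promoters): 27115 of 39085 probes matched. Alternatives were the array median, a percentile over probes detected on both, quantile normalization, loess (span 0.3), normexp (offset 50, on median spot signals), no filter or the brighter 50% of probes, the brightest probe, outlier spots kept, the series matrix, a background call at 3 SD of 153 negative controls, and thresholds of 1.5-fold and 3-fold. Named genes were all 10 members and, of each wider pathway list, the 2 highest, the 2 lowest and any past 2-fold, and of each cell marker list any past 2-fold; undetected markers and other genes were named after their values were seen. Members and lists were chosen with earlier results of these data known, and ERSE-II was added to the motifs after the sequences were seen. The gene step was tested on simulated data. Python 3.11.15, numpy 2.4.6, pandas 2.3.3, statsmodels 0.14.6, R 4.3.3 and limma 3.58.1 were used.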

Additional observations from a re-analysis of the deposited data

How the results depend on the processing

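No paired analysis was possible because each population had 1 array, and leaving out an array leaves no comparison. Of the 10 genes, 1 was called lower under all 11 alternatives to the scaling, background, filter, probe or source, and 0 at a threshold of 3-fold. That gene, Sesn2, has 1 probe, so the probe and filter settings and the negative control call left its difference at -1.57. The count called higher, 0 of the 10 as reported, was 4 with the array median (Dnajb9, Herpud1, Eif2ak3 and Xbp1) and 4 at 1.5-fold. Of all 10521 measured genes, 3380 were higher with the array median and 2145 at 1.5-fold. The count was 1 of the 10 with quantile normalization or the series matrix (Dnajb9), where 348 and 430 of all genes were higher. It was also 1 with the stricter filter or the brightest probe (Atf4). There 141 of 5730 and 300 of 10521 genes were higher. The median of the 10 relative to the median gene, 0.06, was 0.23 with no filter on dim probes. It was 0.24 with the stricter filter, which measured 6 of the 10. Among the other pathway genes, 0 higher of 63 became 22 with the array median and 14 at 1.5-fold, beside the all-gene counts just given. The count was 1 with quantile normalization, the brightest probe or the series matrix, and 1 of 38 with the stricter filter. With no filter on dim probes 3 of 76 were higher, and 0 lower became 1. The median of these pathway genes, 0.08, was 0.24 with no filter and -0.04 with the stricter one. Over all 10521 genes, 253 higher and 462 lower became 3380 and 140 with the array median. They became 61 and 853 with the percentile over probes detected on both, and 72 and 241 with normexp. With no filter they were 1885 and 2542 of 20618 genes, and with the stricter filter 141 and 111 of 5730. At 1.5-fold they were 2145 and 1070, and at 3-fold 31 and 133. Loess gave 118 higher, the series matrix 430 higher, and the negative control call 1080 lower. The share of called genes that were higher, 35.4% as reported, was 47.0% with quantile normalization, 18.2% with loess, 23.0% with normexp, 56.0% with the stricter filter, 54.5% with the series matrix and 20.9% with the negative control call. The array median and the percentile over probes detected on both move every gene by the same amount. The median gene thereby went from 0.22 to 0.79 and to -0.07, which by itself changes the counts. For the other changes of normalization or filter the cause of these shifts was not tested. Dim genes such as Ern1 and Atf6 are limited by signal over background on the high array.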

Other observations

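A further 7 pathway genes were detected on the low array alone: Creb3l2, Creb3l3, Hyou1, Mbtps2, Nupr1, Sel1l and Trib3, named after their values were seen. On the high array their signals lay between 9.46 and 43.1 units, under the lowest detected signal there, 46.4 units. Under the 75th percentile scaling a bound was reached for 2 of them: Nupr1, a small stress-induced chromatin protein, was at least 1.19-fold higher on the low array (63.3 units), and Creb3l3, a liver-type membrane-bound factor, at least 1.12-fold higher (59.6 units). With the array median neither has a bound (ratios of 0.802 and 0.755), so no direction is given. For the other 5, among them Trib3, a pseudokinase that feeds back on ATF4 and CHOP, at 33.2 units, and the ER chaperone gene Hyou1 at 52.5 units, the detection limit of the high array leaves no fold. None of the bounds reached 2-fold. Over all genes, 5453 were detected on the low array alone and 11 on the high array alone.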
